A study of Rattus norvegicus with 6 samples.

Results

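Claudins are the membrane-spanning proteins of the tight junction that set what passes between epithelial cells, and the kidney tubule uses a different set in each of its segments. Some, such as claudin-2 in the proximal tubule, form channels for cations and water, others seal the junction, and claudin-16 with claudin-19 in the thick ascending limb carries calcium and magnesium reabsorption. The 10 claudins described here were chosen by name as those with a known place along the nephron: Cldn1, Cldn2, Cldn3, Cldn4, Cldn7, Cldn8, Cldn10, Cldn14, Cldn16 and Cldn19. All 10 were found on the array, through 20 probes, among 31179 genes that entered the comparison. The placing of each claudin in a segment given below is background knowledge, since whole renal cortex was measured and no segment was separated.

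The tissue was renal cortex of male Sprague-Dawley (Crl:CD(SD)) rats, bought when 5 weeks old. For 4 weeks 3 rats received corn oil, the vehicle, and 3 received benzyl acetate, a fragrance ester, at 1000 mg/kg/day. The labels name no other agent and no genetic change. They give 3 animals and 3 numbered replicates per group, each measured on 1 single-colour Agilent array. In bulk tissue, fewer cells of a segment and less RNA per cell cannot be told apart.

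The DNA before the start of Cldn7, Cldn16 and Cldn3 is shown because the levels of Cldn7 were most like those of Cldn16 and of Cldn3 across the arrays, for Cldn3 by its brighter probe and not its other one. Each is the 250 bases before the annotated start, from RefSeq on GRCr8, 5′ to 3′ on the gene's strand, at chr10:55188420-55188669 (plus strand) for Cldn7, chr11:87814397-87814646 (minus) for Cldn16 and chr12:27346548-27346797 (minus) for Cldn3. Capitals mark CACCTG on either strand, the E-box bound by Snail-family repressors of epithelial junction genes.
Cldn7: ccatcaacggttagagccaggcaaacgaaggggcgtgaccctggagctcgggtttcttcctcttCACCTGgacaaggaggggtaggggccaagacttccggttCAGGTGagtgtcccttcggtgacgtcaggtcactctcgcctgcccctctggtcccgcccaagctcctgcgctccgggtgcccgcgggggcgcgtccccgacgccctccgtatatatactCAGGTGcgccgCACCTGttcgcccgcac
Cldn16: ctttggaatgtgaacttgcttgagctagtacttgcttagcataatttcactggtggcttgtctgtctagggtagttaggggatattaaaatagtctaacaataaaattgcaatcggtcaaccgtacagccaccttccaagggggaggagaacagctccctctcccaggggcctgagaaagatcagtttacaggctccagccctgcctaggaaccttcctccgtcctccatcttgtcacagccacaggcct
Cldn3: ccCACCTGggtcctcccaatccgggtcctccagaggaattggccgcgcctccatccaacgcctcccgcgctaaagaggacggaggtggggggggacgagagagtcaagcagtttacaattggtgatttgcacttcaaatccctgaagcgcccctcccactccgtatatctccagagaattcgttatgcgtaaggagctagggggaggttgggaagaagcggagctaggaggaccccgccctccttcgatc

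The 3 windows had little in common by these letters. Cldn7 held CACCTG 4 times, Cldn3 once and Cldn16 not at all, where 15.9% of 33469 windows of the same length held it at least once and 0.236% held it 3 times or more. Of the 8 claudins with a window in the table, 3 held the motif, the third being Cldn14. The Cldn7 window was 65.6% G or C with 22 CpG pairs and that of Cldn16 49.2% with 3, against medians of 51.2% and 5 over all windows. None of the 8 held TATAAA (12.9% of windows, either strand) or the Grainyhead-type AACCNGTT (1.76%), and 4 held GGGCGG (30.5%). These are matches of letters, not sites shown to be bound. In the gene table Cldn1 and Cldn16 are neighbours with 0 protein-coding genes between them, and so are Cldn3 and Cldn4; the differences of the neighbours Cldn1 and Cldn16 had opposite signs, at 0.21 and -0.44.

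Levels below are log2 signal minus the 75th percentile of all probes on the same array, so 0 is the signal that 75% of probes did not exceed, and each unit is a doubling. Between 69.0% and 72.0% of 61537 probes were well above background on an array, the software's own flag for a spot that stands clear of its surroundings. All 18 proximal tubule markers entered the comparison, as did all 10 podocyte markers, and 4 of 8 urothelium markers did. Vehicle replicate 1 was on a slide of its own. Vehicle replicate 3 stood out in the markers, with an immune marker list 0.91 above its mean over all arrays and a thick ascending limb list 0.22 below it.

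No claudin passed the test. Limma, a linear model with variance shared across genes, called 0 of the 10 higher and 0 lower at a Benjamini-Hochberg adjusted p under 0.05, and their adjusted p-values ran from 0.726 to 0.998. The background was the same: 0 of 31179 genes, or 0%, were called in either direction. At an unadjusted p under 0.05 there was 1 claudin higher, Cldn1, and 0 lower, against 3.82% of all genes higher, 2.92% lower and 6.74% in either direction (1190 genes higher and 910 lower, or 828 and 1276 with the arrays scaled to their medians). The median difference of the 10, benzyl acetate minus vehicle, was -0.07 log2, against 0.012 over all genes, with 6 lower and 4 higher. For 6 claudins the 95% interval lay inside a 1.5-fold difference either way and for 9 inside a 2-fold difference; the exception was Cldn3.

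**Figure D1:**
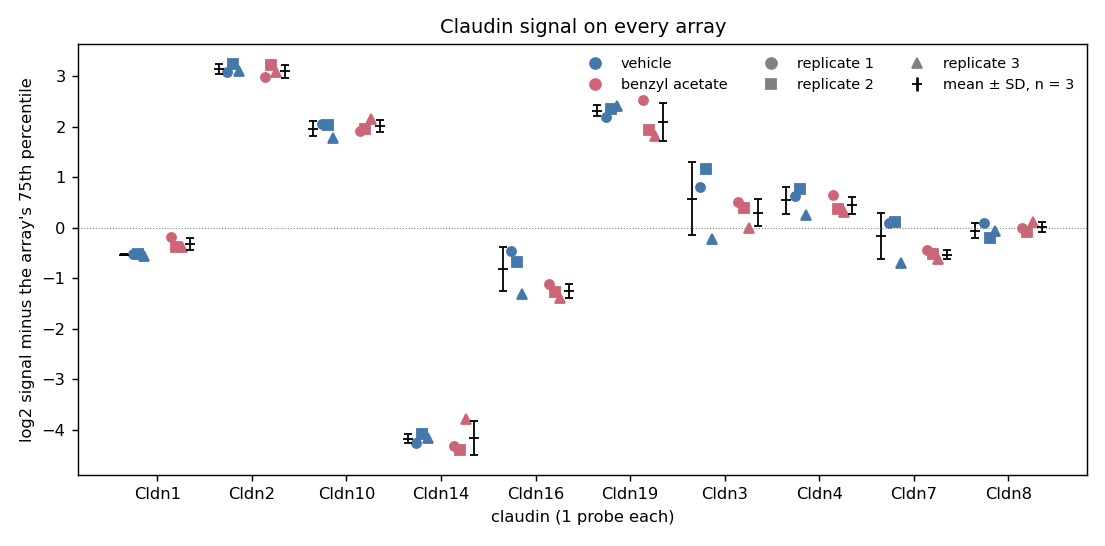
Signal of the 10 claudins on each array (vertical axis, log2 signal minus the array's 75th percentile; 1 probe per gene; blue vehicle, red benzyl acetate; marker shape is the replicate; bars are mean ± SD, n = 3). The groups overlap for each claudin except Cldn1, and the vehicle points of Cldn16, Cldn7 and Cldn3 are spread widely, with vehicle replicate 3 below the others.

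In the proximal tubule, Cldn2 forms the paracellular channel for sodium and water. Its level was 3.08, 3.25 and 3.10 on the vehicle arrays and 2.99, 3.23 and 3.08 on the benzyl acetate arrays. The groups overlapped, and vehicle and treated values of replicate 2 were the highest of each group. The difference was -0.04 (95% interval -0.27 to 0.19), which limma did not call (adjusted p = 0.954). By the brightest probe of each gene, Cldn2 had the narrowest range across the 6 arrays of the 10 claudins, 0.27 log2 from lowest to highest. Its other probe ranged over 0.55 log2 and differed by -0.0006 (-0.46 to 0.46).

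Cldn10 is made in a proximal tubule form, which passes anions, and a thick ascending limb form, which passes sodium. It stood at 2.06, 2.04 and 1.79 with vehicle and at 1.92, 1.97 and 2.15 with benzyl acetate. The groups overlapped, with vehicle replicate 3 the lowest and benzyl acetate replicate 3 the highest. The difference was 0.05 (-0.22 to 0.31; limma adjusted p = 0.960). A single probe measured Cldn10, so the forms were not separated.

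In the thick ascending limb, Cldn16 had the lowest treated mean relative to vehicle of the 10 claudins. Its level was -0.47, -0.68 and -1.31 on the vehicle arrays and -1.11, -1.28 and -1.38 on the benzyl acetate arrays. All 3 treated values lay close together, at -1.26 ± 0.14 (SD, n = 3), while the vehicle values were spread, at -0.82 ± 0.44 (SD, n = 3). Vehicle replicate 3 fell inside the treated range, so the groups overlapped. The difference was -0.44 (-0.99 to 0.11), a 1.36-fold lower mean, and limma did not call it (adjusted p = 0.770). A dimmer probe of Cldn16 gave -0.52 (-1.10 to 0.06), and the probes followed each other across the arrays (Pearson r = 0.98, n = 6, given as a description).

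Without vehicle replicate 3 the difference of Cldn16 was -0.69, and without vehicle replicate 1, or with the slide as a block, it was -0.27. Over all 19 alternative settings it ran from -0.69 to -0.27 with adjusted p-values in limma from 0.427 to 0.942. Markers of the segment were also high on vehicle replicate 1 and low on vehicle replicate 3. Slc12a1, the sodium-potassium-chloride cotransporter NKCC2, named after its values were seen, stood at 4.66, 4.29 and 3.70 with vehicle and at 3.84, 4.14 and 3.83 with benzyl acetate. The 9 measured markers of the segment had a mean of 0.30, 0.08 and -0.22 on the vehicle arrays relative to all 6, and -0.02, -0.02 and -0.11 on the treated arrays. Their summed linear level was 468 to 684 with vehicle and 539 to 571 with benzyl acetate. All 10 immune markers that entered had a lower treated mean, as did 14354 of all 31179 genes, with a median difference of -0.46. The groups of 2 did not overlap, with benzyl acetate lower, against 5.31% of all genes, and no immune marker passed limma. The summed level of the immune list, in which Lyz2 was by far the brightest, was 75.2 to 87.2 with vehicle and 61.9 to 94.5 with benzyl acetate. The part of either list in the Cldn16 values was not tested.

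Cldn19, the partner of claudin-16, was 2.20, 2.35 and 2.41 with vehicle and 2.53, 1.94 and 1.82 with benzyl acetate. Here the treated arrays were the spread ones: benzyl acetate replicate 1 was the highest of all 6 arrays and the other treated arrays were the lowest. The difference was -0.22 (-0.70 to 0.26; limma adjusted p = 0.855), and it was -0.44 without benzyl acetate replicate 1 and -0.08 without benzyl acetate replicate 3, with adjusted p-values from 0.586 to 0.964 over the 19 settings. All 3 probes of Cldn19 had a lower treated mean, at -0.22, -0.23 and -0.15. On the brightest Cldn19 probe vehicle replicate 3 was the highest vehicle array, and on its other probes vehicle replicate 1 was.

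Cldn14, which restrains the calcium channel of claudin-16 and claudin-19 and is raised by the calcium-sensing receptor, was dim. It stood at -4.27, -4.09 and -4.18 with vehicle and at -4.32, -4.41 and -3.79 with benzyl acetate, near the 40th to 45th percentile of the probes on an array. The difference was 0.005 (-0.42 to 0.43; limma adjusted p = 0.998), with treated values to both sides of the vehicle values. It was -0.19 without benzyl acetate replicate 3, the highest array, and adjusted p-values over the settings ran from 0.866 to 0.998. The other Cldn14 probe was well above background on 3 of the 6 arrays and did not enter. Casr, the calcium-sensing receptor itself, named after its values were seen, differed by -0.14 (-0.56 to 0.28).

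Cldn1 is found in the parietal epithelium of Bowman's capsule. Its level was -0.53, -0.52 and -0.55 with vehicle and -0.18, -0.38 and -0.39 with benzyl acetate, so that each treated array lay above each vehicle array. Groups that did not overlap, with benzyl acetate higher, were seen for 7.51% of all genes. The difference was 0.21 (0.02 to 0.41), a 1.16-fold higher mean, with an unadjusted p of 0.0377 and an adjusted p of 0.726 in limma. The vehicle values lay close together, at -0.53 ± 0.016 (SD, n = 3). Over the 19 settings the adjusted p of Cldn1 ran from 0.336 with no filter on dim probes to 1.00 with its lowest-signal probe.

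The groups overlapped for the other Cldn1 probes. One stood at -0.63, -1.39 and -0.84 with vehicle and 0.15, -1.05 and -0.43 with benzyl acetate, a difference of 0.51 (-0.33 to 1.36) with overlapping groups. The dimmest gave -2.01, -2.23 and -1.54 against -1.86, -1.85 and -2.08, a difference of 0.0004 (-0.45 to 0.45). Of 7 parietal epithelial markers, none of which passed, 3 were higher and 4 lower, with a median of -0.02. The brightest of that list, Cd24, a surface glycoprotein, and Pax8, a transcription factor also made in tubule cells, differed by -0.11 and -0.03, and Cdh6 by 0.08.

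The distal nephron and collecting duct express Cldn3, Cldn4, Cldn7 and Cldn8. Cldn7, which is found along the basolateral side of these cells as well as in the junction, was 0.10, 0.12 and -0.69 with vehicle and -0.44, -0.53 and -0.63 with benzyl acetate. As for Cldn16, vehicle replicates 1 and 2 were high and vehicle replicate 3 was low, here the lowest of all 6 arrays, while the treated arrays lay within 0.18 of each other. The difference was -0.37 (-0.94 to 0.19; limma adjusted p = 0.806). It was -0.64 without vehicle replicate 3, -0.24 without vehicle replicate 1 and -0.23 without vehicle replicate 2, and adjusted p-values over the 19 settings ran from 0.372 to 0.958. One probe measured Cldn7.

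Cldn3, a sealing claudin, had 2 probes that differed in how much they varied. The brighter one was 0.81, 1.16 and -0.23 with vehicle and 0.52, 0.40 and -0.01 with benzyl acetate, a 2.62-fold range across the arrays. The other was 0.15, 0.27 and 0.17 with vehicle and 0.08, 0.05 and 0.21 with benzyl acetate, a range of 0.22 log2 against 1.39. Their mean levels lay only 0.29 log2 apart. The difference was -0.28 (-1.18 to 0.63; limma adjusted p = 0.909) by the first and -0.08 (-0.27 to 0.10) by the second, and by the first it was 0.01 without vehicle replicate 2 and -0.68 without vehicle replicate 3, with adjusted p-values from 0.560 to 0.997 over the settings. The wide interval was that of 1 of its 2 probes.

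Cldn4 and Cldn8 act together in the chloride pathway of the collecting duct. Cldn4 was 0.62, 0.76 and 0.25 with vehicle and 0.64, 0.38 and 0.31 with benzyl acetate, a difference of -0.10 (-0.49 to 0.29; limma adjusted p = 0.931), with vehicle replicate 3 again the lowest array. Its second probe differed by -0.04. Without vehicle replicate 3 the difference of Cldn4 was -0.25, without vehicle replicate 2 it was 0.007, and adjusted p-values over the settings ran from 0.723 to 0.997. Cldn8 was 0.10, -0.21 and -0.06 with vehicle and -0.002, -0.08 and 0.12 with benzyl acetate. Its means were -0.06 ± 0.16 (SD, n = 3) with vehicle and 0.011 ± 0.10 (SD, n = 3) with benzyl acetate, a difference of 0.07 (-0.19 to 0.33; limma adjusted p = 0.929), and its second probe gave 0.11. Neither gene separated the groups.

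**Figure D2:**
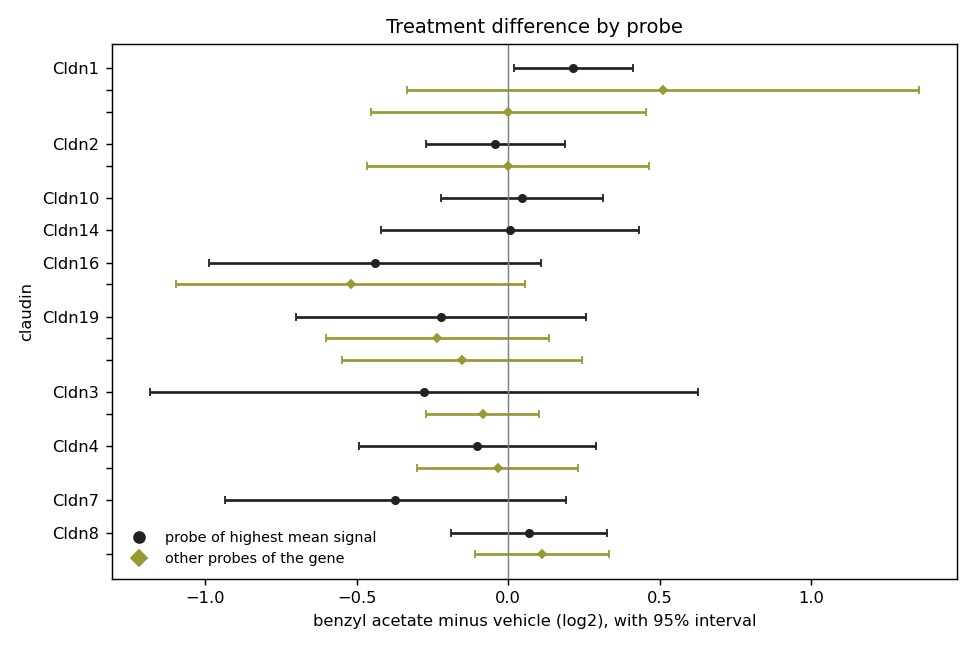
Difference between benzyl acetate and vehicle (horizontal axis, log2) with its 95% interval for the 19 claudin probes that entered; circles are the probe of highest mean signal and diamonds the other probes of the gene. All intervals but that of the brightest Cldn1 probe include 0, and the brighter Cldn3 probe has a far wider interval than its other probe.

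Of the 10 claudins, 7 had more than 1 usable probe. In all 9 pairings of a gene's brightest probe with another of its probes the treated difference had the same sign, although in 2 of them a difference was under 0.001 in size. The level was another matter: the probes of Cldn2 were 3.31 log2 apart, a 9.93-fold difference in signal for the same transcript, and those of Cldn4 were 2.16 apart. The probes of Cldn16 were 0.14 apart. The order of the 10 claudins by signal, from Cldn2 (above 91.2% of probes on each array) to Cldn14, is an order of probes and not of transcript amounts. No claudin probe was saturated or marked as an outlier.

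The members of lowest unadjusted p were Cldn1, Cldn16 and Cldn7, and the gene most like each across the 6 arrays was sought among 163 listed genes, as a description. Cldn16 and Cldn7 were each other's closest match (Pearson r = 0.97, n = 6). After Cldn7, Cldn16 was most like Atp6v1c2, a proton pump subunit of intercalated cells (r = 0.90), and after Cldn16, Cldn7 was most like Cldn3 (r = 0.92, by its brighter probe). Cldn1 was most like Cdh6, a cadherin (r = 0.84). These are the highest values among many genes over few arrays. Cldn16 and Cldn7 share their high arrays, vehicle replicates 1 and 2.

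**Figure D3:**
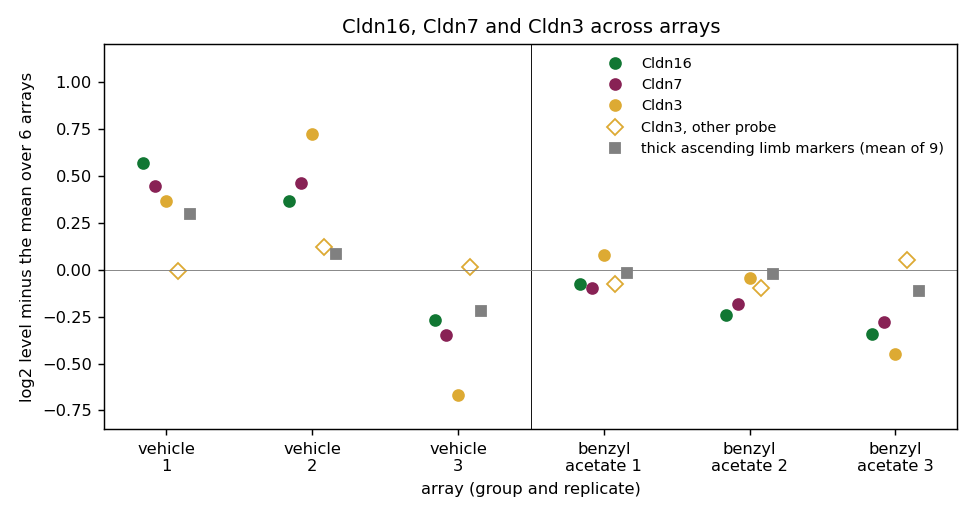
Level of Cldn16, Cldn7 and Cldn3 and mean level of 9 thick ascending limb markers on each array (horizontal axis, group and replicate; vertical axis, log2 level minus the mean over the 6 arrays). Cldn16, Cldn7 and the brighter Cldn3 probe are high on vehicle replicates 1 and 2 and low on vehicle replicate 3, while the other Cldn3 probe (open diamonds) stays within 0.22 log2.

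Beyond the claudins, none of the 22 measured tight junction partners passed limma, with a median difference of -0.02, 9 higher and 13 lower. The groups did not overlap, with benzyl acetate lower, for 4 of them, against 5.31% of all genes, and these were named after their values were seen. The count was 2 with normexp, 2 with probes averaged per gene and 1 with the dimmest probe of each. Tjp1, the scaffold ZO-1 that binds claudin tails, was 1.48, 1.56 and 1.53 with vehicle and 1.42, 1.46 and 1.44 with benzyl acetate, a difference of -0.08 (-0.23 to 0.07). Prkci and Pard3, of the polarity complex that places the junction, differed by -0.07 each, and Jam2, a junctional adhesion molecule, by -0.19 (-0.41 to 0.03). Their adjusted p-values in limma were 0.757 to 0.849. Ocln, which encodes occludin, differed by 0.25 (-0.11 to 0.61), and F11r, a further adhesion molecule, by -0.03.

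Of 13 measured regulators of renal claudins none passed, and the median difference was -0.006. Prss8, the protease prostasin, which acts on claudin-4 and on the epithelial sodium channel, was 6.23, 6.13 and 6.20 with vehicle and 6.24, 6.37 and 6.34 with benzyl acetate, without overlap of the groups, a difference of 0.13 (-0.04 to 0.30; limma adjusted p = 0.785). Grhl2, a transcription factor that acts on Cldn4, also had separate groups, at 0.10 (-0.07 to 0.27). Groups were separate in that direction for 7.51% of all genes, and for 0 of the 13 regulators with normexp, quantile normalization or median scaling. Wnk1, a kinase of distal salt transport, differed by -0.02.

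The segment markers that the claudins belong with gave no calls either. For the thick ascending limb the median difference was -0.14, and 7 of 9 markers had the lower treated mean, with Kcnj1, the potassium channel ROMK, at -0.23, Bsnd, a chloride channel subunit, at -0.17 and Umod, uromodulin, at -0.07. The direction of that list rested on vehicle replicate 1, without which the median was 0.04. For the distal convoluted and connecting tubule the median was -0.08, with 7 of 8 markers lower. Among them Calb1, the calcium-binding protein calbindin, was at -0.41 (-0.79 to -0.03; limma adjusted p = 0.726) without overlap of the groups, against 5.31% of all genes in that direction. Slc12a3, the thiazide-sensitive cotransporter, was at -0.19. Proximal tubule markers had a median of 0.05, higher in 12 of 18. Principal cell markers had one of 0.07, which was -0.02 without vehicle replicate 2. Among the latter the water channels Aqp2 and Aqp3 were at -0.23 and -0.16 and the sodium channel subunit Scnn1b at 0.18. The groups did not overlap, with benzyl acetate higher, for 3 proximal tubule markers and 1 principal cell marker, against 7.51% of all genes. They did not overlap, with benzyl acetate lower, for 1 principal cell marker and 1 of the thick ascending limb. Intercalated cell markers had a median of -0.03, with 6 of 12 higher and 6 lower. The groups of 2 of these did not overlap, with benzyl acetate lower, against 5.31% of all genes. They were Slc26a4, the anion exchanger pendrin, at -0.96 (-1.41 to -0.51; limma adjusted p = 0.609) and Atp6v1g3, a proton pump subunit, at -0.63 (-0.95 to -0.31; limma adjusted p = 0.620). The list had summed linear levels of 186 to 233 with vehicle and 147 to 170 with benzyl acetate. Those sums did not overlap, and both genes had the brightest probes of the list. Separate sums, with benzyl acetate higher, were also seen for proximal tubule markers (3524.2 to 3665.8 with vehicle and 3673.5 to 3941.5 with benzyl acetate). The same held for endothelial markers (74.3 to 76.3 with vehicle and 79.2 to 83.3 with benzyl acetate). The part of the intercalated cell markers in the collecting duct claudins was not tested.

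**Figure D4:**
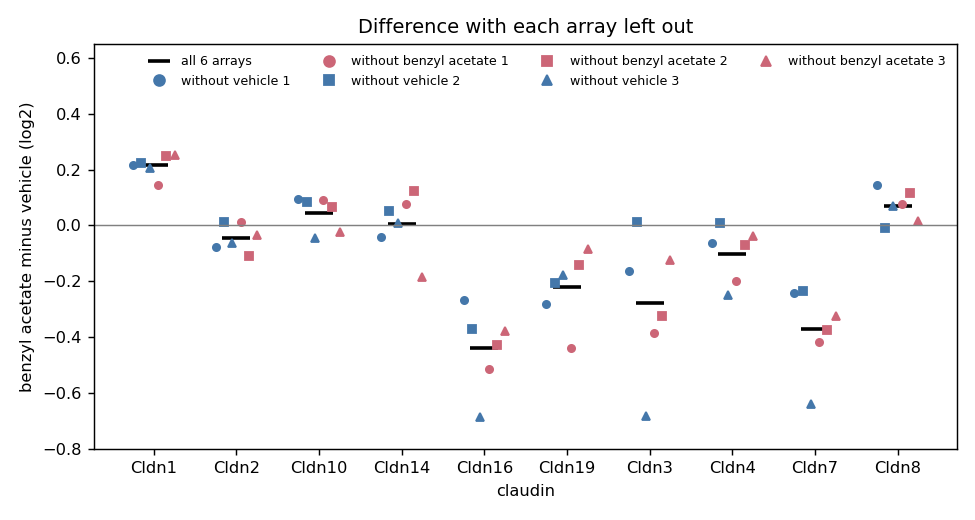
Difference of each claudin between benzyl acetate and vehicle (vertical axis, log2) with all 6 arrays (black bars) and with 1 array left out (points; colour is the group and shape the replicate of the array left out). Without vehicle replicate 3, Cldn16, Cldn3 and Cldn7 lie at -0.69, -0.68 and -0.64, and Cldn1, Cldn7, Cldn16 and Cldn19 keep their sign in all 6 cases.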

How the data were processed

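Renal cortex RNA of 6 rats was measured on 1-colour arrays, 3 per group, grouped and numbered as the labels have them. Scanner tables deposited by the authors give each spot's intensity on a linear scale, with background already subtracted and no scaling across arrays (per the file headers; the submitters' processing notes name Feature Extraction 10.7), and 0 or 1 flags set by that software. The deposited value table, also intensity, equalled the scanner signal divided by the array's 75th percentile, with column medians of 0.110 to 0.115.

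The processed signal was put on a log2 scale and each array's own 75th percentile, taken over its 61537 probes that are not controls, was subtracted. A probe entered when well above background on all 3 arrays of a group, and the brightest probe stood for a gene. Names came from matching transcript accessions to RefSeq (GRCr8): 28206 probes matched 15645 symbols, and a target with no symbol counted as a gene by its accession. Only the promoter windows carry coordinates. Limma 3.58.1 in R 4.3.3 was fitted without a block (adjusted p threshold 0.05) and tested on simulated data. The labels name no pairing. Same-numbered animals did not deviate together over all genes (correlations -0.11 to 0.008), which cannot show that none exists. Members and lists were chosen with earlier results of these data known. Named were the 10 members, the measured other claudins and, per list, the 2 genes of lowest p and the 2 brightest, of which 1 is not reported here. The normexp alternative used median spot signals. The number of arrays limits the precision.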

Additional observations from a re-analysis of the deposited data

How the results depend on the processing

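Under 19 alternatives, 0 of the 10 claudins passed the threshold in limma, and the lowest adjusted p was 0.336. Of 190 claudin differences, 177 kept their direction, a count that overstates agreement because the settings were not all distinct. Changing the filter on dim probes or keeping flagged spots left each claudin difference as it was. The slide block gave the same differences as leaving out vehicle replicate 1. The other 13 of the 190 were small or rested on 1 array. Cldn14 was -0.042 when slide was a block, -0.030 with quantile normalization and -0.024 with median scaling, and Cldn10 was -0.033 with normexp (offset 50). With 1 array left out in turn, Cldn14 ran from -0.19 (benzyl acetate replicate 3 out) to 0.12, Cldn10 from -0.044 (vehicle replicate 3 out) to 0.095, Cldn2 from -0.11 to 0.013 (benzyl acetate replicate 1 out), and, highest or lowest with vehicle replicate 2 out, Cldn3 from -0.68 to 0.013, Cldn4 from -0.25 to 0.0070 and Cldn8 from -0.0090 to 0.15. The cause was not tested. Genes called lower over all genes numbered 2 with normexp and 0 to 2 with an array left out (2 without benzyl acetate replicate 1); no setting called any higher. With the replicate number as a block (replicate block) the calls stayed at 0 higher and 0 lower. Each such block holds 1 array of each group, so the 10 claudin differences could not change. Their standard errors could: that of Cldn16 fell from 0.224 to 0.149 and that of Cldn10 rose from 0.109 to 0.134. The median of the 10 ran from -0.12 without vehicle replicate 3 to 0.009 without vehicle replicate 2. The groups of Cldn1 overlapped with the mean of its probes. Of 304 list medians under the alternatives, 19 moved by at least the list's own spread between arrays of a group. Of 608 counts of genes without overlap, 102 changed from 0 or by more than 1.5-fold. Scaling moved the median of all genes by under 0.1 log2, but the genes at an unadjusted p under 0.05 were 1190 higher and 910 lower as scaled here and 828 higher and 1276 lower with median scaling. Arrays give no depth, and Cldn14 alone of the 10 lay far below the 75th percentile.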

Other observations

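Other members of the claudin family, 10 of which entered the comparison, gave no call in limma either, with a median difference of 0.08 and 7 higher. The neighbouring genes Cldn22 and Cldn24 had the highest treated means relative to vehicle among the claudins that entered, dimmer ones left aside. Cldn22 was -2.82, -2.10 and -2.89 with vehicle and -1.48, -2.27 and -1.63 with benzyl acetate, a difference of 0.81 (95% interval 0.09 to 1.53; limma adjusted p = 0.710). Cldn24 was -3.21, -2.45 and -2.94 with vehicle and -1.46, -2.60 and -1.46 with benzyl acetate, a difference of 1.02 (0.13 to 1.92; limma adjusted p = 0.709), a 2.03-fold higher mean. Benzyl acetate replicate 2 lay within the vehicle range for both, so the groups overlapped. A second Cldn22 probe, 1.15 log2 dimmer, gave 0.50. Probe sequences were not used here, so signal shared between these neighbours cannot be told apart from change in each.

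Cldn5, the claudin of blood vessel endothelium, differed by -0.01 (-0.26 to 0.23). Cldn23 differed by 0.24 by its brighter probe and by -0.65 by a probe 4.76 log2 dimmer, the only pair of claudin probes, of 15 compared, that disagreed in sign. The remaining values were Cldn9 at -0.16, Cldn6 at -0.29 with an interval of -1.83 to 1.26, Cldn18 at 0.12, Cldn34d at 0.14, Cldn12 at 0.04 and Cldn17 at 0.01. Endothelial markers had a median of 0.05 and were higher in 7 of 8, against 16825 of all 31179 genes. The growth factor receptors Kdr and Flt1 were at 0.25 and 0.18, neither of which passed (limma adjusted p = 0.700 and 0.732). The 1 lower marker, Tek, named after its values were seen, was at -0.21 (-0.42 to 0.005; limma adjusted p = 0.736).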
